A study of Mus musculus with 10 samples.

Results

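Transcripts of 7 genes that mark B cells and antibody production were followed in RNA-seq libraries of mouse left atria. The genes were Ighm, Igkc, Jchain, Cd79a, Cd79b, Ms4a1 and Cd22, chosen by name from the 37583 gene rows of each count table. All 7 passed the filter on low counts and were among the 15364 genes tested.

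The series holds 10 poly(A)-selected libraries of adult left atria in 4 groups. IBR libraries (n = 3, numbered 1 to 3) came from atria treated with ibrutinib, and CTL libraries (n = 3, numbered 1 to 3) from atria given vehicle. The KO libraries (n = 2, KO26 and KO337) were labelled as a cardiac Csk knockout, and WT libraries (n = 2, WT35 and WT338) were wild type and untreated. The driver of the knockout, the strain, sex and exact age of the mice, and the dose and length of treatment are not stated in the labels. No label says whether libraries of a group came from separate animals, so p-values measure the spread between libraries, which may be technical.

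B cells carry a receptor made of a membrane-bound antibody and a signalling pair, CD79A and CD79B. Ibrutinib blocks BTK, a kinase that passes the signal of this receptor on, and it is used against B cell cancers; in the heart it is known for atrial fibrillation. CSK restrains the Src family kinases, some of which start the signal at the same receptor. When a B cell becomes a plasma cell it makes large amounts of antibody RNA and J chain RNA and loses most surface markers, so the antibody genes and the surface genes report on partly different cells.

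Counts on genes ran from 14907331 to 19960947 per library. Values below are CPM, read counts scaled to the size of their library by the trimmed mean of M values (TMM), and 3 counts were worth 0.136 to 0.216 CPM. The targeted gene did not follow the labels: Csk CPM were 24.7 in KO26 and 35.5 in KO337, against 18.2 in WT35 and 17.8 in WT338 (adjusted p = 0.0608, edgeR quasi-likelihood test). The files do not show which exons were removed, so this level does not test the deletion itself, and each direction given for KO below is that of the libraries labelled KO. Summed atrial cardiomyocyte markers were lowest in KO337, at 30584 CPM, against 56578 CPM in KO26 and 70361 to 75564 CPM in WT.

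Ighm (ENSMUSG00000076617, chromosome 12) encodes the constant region of the IgM heavy chain, the class that naive B cells carry. It was measured at 7.52, 6.77 and 6.05 CPM in IBR1, IBR2 and IBR3, against 2.79, 5.62 and 6.64 CPM in CTL1, CTL2 and CTL3. In the genotype libraries it was measured as 17.4 (KO26) and 47.1 (KO337) CPM, against 10.1 (WT35) and 53.0 (WT338) CPM. One library of each genotype was high, and the ranges overlapped both for IBR and CTL and for KO and WT.

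Igkc (ENSMUSG00000076609, chromosome 6) encodes the constant region of the kappa light chain, which most mouse antibodies use. Its level was 1.42, 0.689 and 0.611 CPM in IBR1 to IBR3, against 0.171, 0.792 and 0.302 CPM in CTL1 to CTL3. In KO26 and KO337 it was 1.97 and 59.4 CPM, against 2.57 and 15.8 CPM in WT35 and WT338. The value of 59.4 CPM came from 1313 reads and was the highest level of Igkc in the series.

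Jchain (ENSMUSG00000067149, chromosome 5) encodes the joining chain that links secreted IgM and IgA into polymers, and it is a product of antibody-secreting cells. It had 9, 5 and 2 reads in IBR1 to IBR3, against 0, 4 and 0 reads in CTL1 to CTL3. It had 10 reads in KO26 and 734 in KO337, or 0.58 and 33.2 CPM, against 18 reads in WT35 and 150 in WT338, or 0.89 and 9.42 CPM. KO337 and WT338 therefore stood apart from the other libraries of their own groups in all 3 antibody genes.

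**Figure D1:**
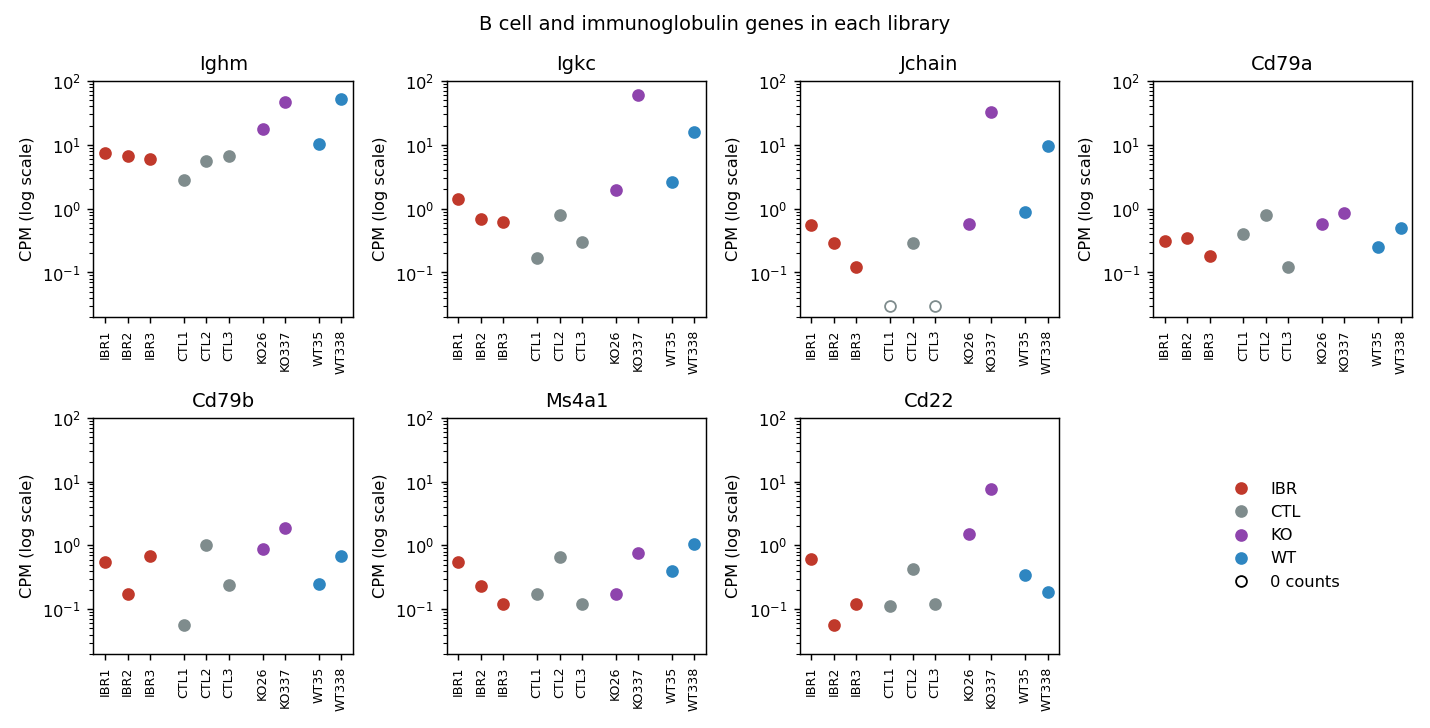
TMM-scaled CPM of each gene in each library, on a log axis, with 1 panel per gene and 1 point per library coloured by group; open points mark libraries with 0 counts. Igkc and Jchain are highest in KO337 (59.4 and 33.2 CPM), followed by WT338 (15.8 and 9.42 CPM).

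The proportions of the 3 antibody genes also differed between libraries. Reads on Ighm outnumbered those on Igkc by 3.94 times in WT35, 3.36 times in WT338 and 8.82 times in KO26, but in KO337 the ratio was 0.793. In IBR libraries the same ratio of counts ran from 5.30 to 9.90 and in CTL libraries from 7.09 to 22. Per kilobase of exon, Igkc reached 112 CPM in KO337 against 25.0 CPM for Ighm and 13.2 CPM for Jchain in the same library. Per kilobase in WT338, Igkc was at 29.6 CPM, Ighm at 28.1 CPM and Jchain at 3.74 CPM.

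The variable segments, which each B cell clone joins once into its own antibody gene, give a view of how diverse these transcripts were. The tables held 89 variable segment rows, of which 27 were heavy chain (Ighv), 59 kappa (Igkv) and 3 lambda (Iglv) segments. KO337 had 521 reads on 41 of them and KO26 had 34 reads on 9, against 383 reads on 9 in WT338 and 8 reads on 7 in WT35. IBR libraries had 9, 2 and 2 such reads, against 2, 8 and 1 in CTL libraries.

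WT338 and KO337 differed in their first kappa segment but had reads on some of the same segments. In WT338, Igkv4-50 held 201 of 224 kappa variable reads, or 89.7% (95% exact Clopper-Pearson interval 85.0% to 93.4%), and Igkv4-91 held 19. The lambda segment Iglv1 had 149 reads in WT338 and 60 in KO337, and Igkv4-91 had 29 reads in KO337. In KO337 the kappa reads were spread over 29 segments, with Igkv4-57 first at 138 of 378 reads, or 36.5% (31.6% to 41.6%), followed by Igkv8-21 at 41 reads. Igkv4-57 and Igkv8-21 had 0 reads in WT338, which allows at most 3 counts, while Igkv4-50 had 15 reads in KO337. In KO26, Igkv8-30 was first with 12 of 28 kappa reads. These intervals cover counting error only, since PCR copies of a molecule were not told apart.

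The 3 Igkv4 segments with the most reads are shown because their own counts depend on telling near copies apart. A difference between WT338 and KO337 was also seen in some other segments, such as Igkv8-21, with 41 reads in KO337 and 0 in WT338. Igkv4-50 and Igkv4-57 matched at 312 of 352 aligned bases, or 88.64%, and Igkv4-91 matched them at 83.81% and 85.51%. The last 120 bases of each germline segment, from GENCODE vM21 on GRCm38 (chromosome 6, minus strand), differ at 22 positions, given in capitals.
Igkv4-50: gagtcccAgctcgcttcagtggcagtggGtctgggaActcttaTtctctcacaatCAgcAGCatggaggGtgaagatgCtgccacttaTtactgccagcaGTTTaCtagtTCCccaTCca
Igkv4-57: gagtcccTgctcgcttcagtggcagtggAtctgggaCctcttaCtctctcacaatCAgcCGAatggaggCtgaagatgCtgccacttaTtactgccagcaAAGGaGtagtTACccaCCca
Igkv4-91: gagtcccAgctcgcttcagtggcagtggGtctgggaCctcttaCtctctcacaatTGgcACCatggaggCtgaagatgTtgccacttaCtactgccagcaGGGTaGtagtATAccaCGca
Reads of such near copies can be split between them or lost as not uniquely placed, so the count of a single segment is uncertain. Many variable segments are not among the 89 rows and were not analysed here.

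**Figure D2:**
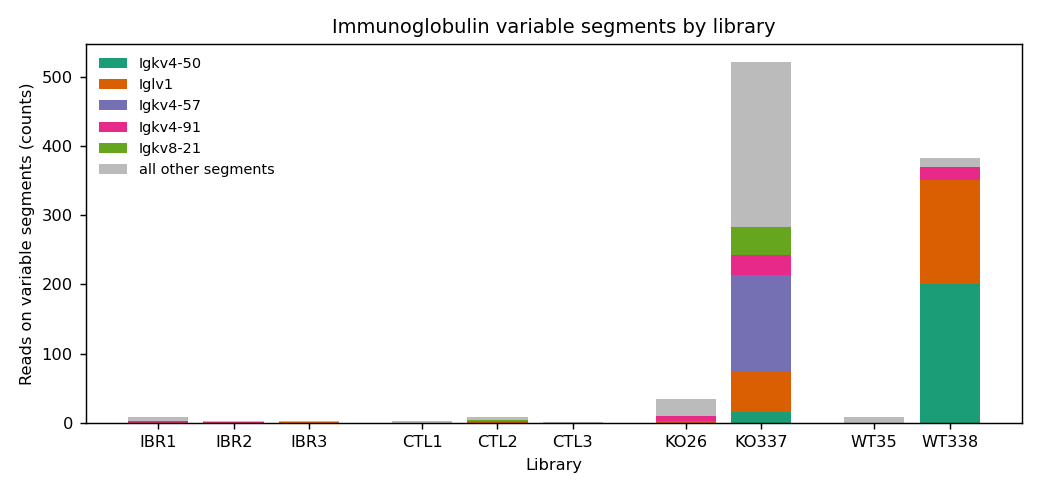
Reads on immunoglobulin variable segments in each library, stacked by segment, for the 5 segments with the most reads and all others together. KO337 (521 reads) is made of many segments, and WT338 (383 reads) mostly of Igkv4-50 (201 reads) and Iglv1 (149 reads).

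The class-switched heavy chains followed KO337 in part. Ighg1 and Ighg2b, constant regions of IgG classes, had 75 and 88 reads in KO337 and at most 3 reads in each other library. Ighg2c, another IgG constant region, had 154 to 476 reads in every library: 11.9 and 21.5 CPM in KO26 and KO337, against 7.61 and 11.2 CPM in WT35 and WT338. In IBR libraries Ighg2c was at 18.3 to 22.6 CPM, against 17.6 to 21.2 CPM in CTL, so its level did not go with that of Ighm, Igkc or Jchain. Ighg3, Iglc2, Vpreb1 and Vpreb3 had at most 10 reads in any library, and Ighe and Igll1 had 0 in all.

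Cd79a (ENSMUSG00000003379, chromosome 7) and Cd79b (ENSMUSG00000040592, chromosome 11) encode the signalling pair of the B cell receptor. Cd79a had 5, 6 and 3 reads in IBR1 to IBR3, against 7, 11 and 2 reads in CTL1 to CTL3, and 0.58 and 0.86 CPM in KO26 and KO337, against 0.247 and 0.503 CPM in WT35 and WT338. Cd79b had 9, 3 and 11 reads in IBR1 to IBR3, against 1, 14 and 4 reads in CTL1 to CTL3. It was at 0.87 and 1.85 CPM in KO26 and KO337, against 0.247 and 0.691 CPM in WT35 and WT338. Both genes were thus low everywhere and without a gap between IBR and CTL. Both KO libraries lay above both WT libraries, as was so for 26.3% of all tested genes. The nearest values were 10 reads in KO26 against 8 in WT338 for Cd79a, and 15 against 11 reads for Cd79b. Neither gene was called (adjusted p of 0.432 and 0.318, edgeR).

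Ms4a1 (ENSMUSG00000024673, chromosome 19) encodes CD20, the B cell surface protein that antibody drugs such as rituximab bind. It had 9, 4 and 2 reads in IBR1 to IBR3, against 3, 9 and 2 reads in CTL1 to CTL3, and 3 and 17 reads in KO26 and KO337, against 8 and 17 reads in WT35 and WT338. Its groups overlapped in both comparisons.

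Cd22 (ENSMUSG00000030577, chromosome 7) encodes a sialic acid-binding co-receptor that dampens B cell receptor signals. It had 10, 1 and 2 reads in IBR1 to IBR3, against 2, 6 and 2 reads in CTL1 to CTL3. It had 26 reads in KO26 and 168 in KO337, or 1.51 and 7.60 CPM, against 7 reads in WT35 and 3 in WT338, or 0.346 and 0.188 CPM. As a ratio of counts not corrected for length, Cd22 to Cd79a was 2.60 in KO26 and 8.84 in KO337, against 1.40 in WT35 and 0.375 in WT338; the difference between these genes was not tested.

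The surface genes were near the counting limit in the drug comparison. Of the 24 values of Cd79a, Cd79b, Ms4a1 and Cd22 in IBR and CTL libraries, 11 were at 3 reads or fewer, and the highest was 14 reads. Summed over the 4 genes, KO26 and KO337 had 3.13 and 11.1 CPM, against 1.24 and 2.45 CPM in WT35 and WT338. Without Cd22 the sums were 1.62 and 3.48 CPM in KO26 and KO337, against 0.89 and 2.26 CPM in WT35 and WT338, and these overlap. The sum of all 4 was 2.03, 0.803 and 1.10 CPM in IBR1 to IBR3, against 0.739, 2.88 and 0.603 CPM in CTL1 to CTL3. In these bulk samples, more cells of a type and more RNA per cell cannot be told apart.

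The promoters of Cd22 and Cd79a are shown because both genes had both KO libraries above both WT libraries and, unlike Cd79b, an entry to show. The same order of libraries held for 26.3% of all tested genes. RefSeq's promoter table for GRCm38.p6 had entries for 3 of the 7 genes, Jchain, Cd79a and Cd22. The 250 bases before each start were searched on both strands for the octamer ATGCAAAT, the PU.1 box GAGGAAGT, the ETS core CAGGAAGT and the EBF1 core CCCNNGGG; the box and the ETS core differ in their first letter alone. Capitals mark the matches.
Cd22: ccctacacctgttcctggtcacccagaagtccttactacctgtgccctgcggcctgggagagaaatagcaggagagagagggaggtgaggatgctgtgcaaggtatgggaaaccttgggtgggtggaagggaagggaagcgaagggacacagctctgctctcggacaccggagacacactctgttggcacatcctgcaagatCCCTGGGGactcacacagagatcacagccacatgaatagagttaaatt
Cd79a: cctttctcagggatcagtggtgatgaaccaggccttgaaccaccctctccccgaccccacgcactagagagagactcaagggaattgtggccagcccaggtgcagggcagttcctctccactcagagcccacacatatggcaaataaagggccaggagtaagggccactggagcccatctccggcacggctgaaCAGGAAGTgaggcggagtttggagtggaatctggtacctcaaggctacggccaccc
The Cd22 window is chr7:30879029-30879278 on the minus strand and holds 1 EBF1 core, which 11.8% of all 32851 promoters hold. The Cd79a window is chr7:24897247-24897496 on the plus strand and holds 1 ETS core, which 2.69% of promoters hold. None of the 3 windows held the octamer (1.60% of promoters) or the PU.1 box (2.44%), and the Jchain window held none of the 4.

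The first comparison asked how ibrutinib changed atrial transcripts. None of the 7 genes was called between IBR and CTL (edgeR quasi-likelihood test, adjusted p under 0.05 over all genes tested), where 0% of all tested genes were called. No member passed an unadjusted p under 0.05, against 847 of the 15364 genes tested, and DESeq2 called 0 of the 7 and 2 genes in all. The log2 fold changes of IBR against CTL were 0.44 ± 0.61 (SE) for Ighm, 1.15 ± 1.52 for Igkc and 1.84 ± 2.44 for Jchain. They were -0.60 ± 0.67 for Cd79a, 0.16 ± 0.87 for Cd79b, 0.00 ± 0.74 for Ms4a1 and 0.29 ± 1.05 for Cd22.

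These estimates leave wide room. For Ighm, the most precisely measured, the 95% interval of the IBR to CTL ratio ran from 0.520 to 3.54, and for Igkc from 0.207 to 23.9. For Cd79a it ran from 0.236 to 1.85 and for Cd22 from 0.243 to 6.18. The median of the 7 log2 fold changes was 0.29, beside -0.03 over all genes tested. In no member did the IBR libraries lie wholly above or below the CTL libraries, as 5.91% and 7.53% of all tested genes did.

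The second comparison asked what differed in atria labelled as Csk knockouts. None of the 7 genes was called between KO and WT in the same fit, where 2.21% of all tested genes were called, 1.31% higher and 0.898% lower. Cd22 came nearest, with a log2 fold change of 4.03 ± 1.01 (SE), or 16.4-fold (95% interval 3.48 to 77.2), and an adjusted p of 0.0629 in edgeR. DESeq2 called Cd22 (adjusted p = 0.0052), where it called 12.4% of the genes it tested, as did edgeR without the filter on low counts (adjusted p = 0.0421), where 4.68% were called. Without KO337 the log2 fold change of Cd22 was 2.41, and without KO26 it was 4.74, both in edgeR. It was 4.55 without WT35 and 3.68 without WT338. With KO and WT fitted alone Cd22 was not called (adjusted p = 0.314, edgeR), where 0% of all tested genes were.

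The other surface genes had log2 fold changes in KO against WT of 1.57 ± 0.95 (SE) for Cd79b, 0.97 ± 0.73 for Cd79a and -0.56 ± 0.91 for Ms4a1. The ranges of Cd79a, Cd79b and Cd22 did not overlap, with both KO libraries above both WT libraries, as was so for 26.3% of all tested genes. The antibody genes had log2 fold changes of 0.04 ± 0.68 for Ighm, 1.76 ± 1.20 for Igkc and 1.73 ± 1.40 for Jchain, with adjusted p from 0.384 to 0.983 in edgeR. The median over the 7 genes was 1.57, beside 0.01 over all genes tested.

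The sign of the antibody genes was set by single libraries. Without KO337 the log2 fold changes of KO against WT were -0.87 for Ighm, -2.22 for Igkc and -3.13 for Jchain, and the median of the 7 genes was -0.87. Without WT338 they were 1.66, 3.56 and 4.22, and the median was 2.43. Within a group, the higher library exceeded the lower by 30.1 times for Igkc and 57.3 times for Jchain in KO, against 6.13 and 10.6 times in WT.

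**Figure D3:**
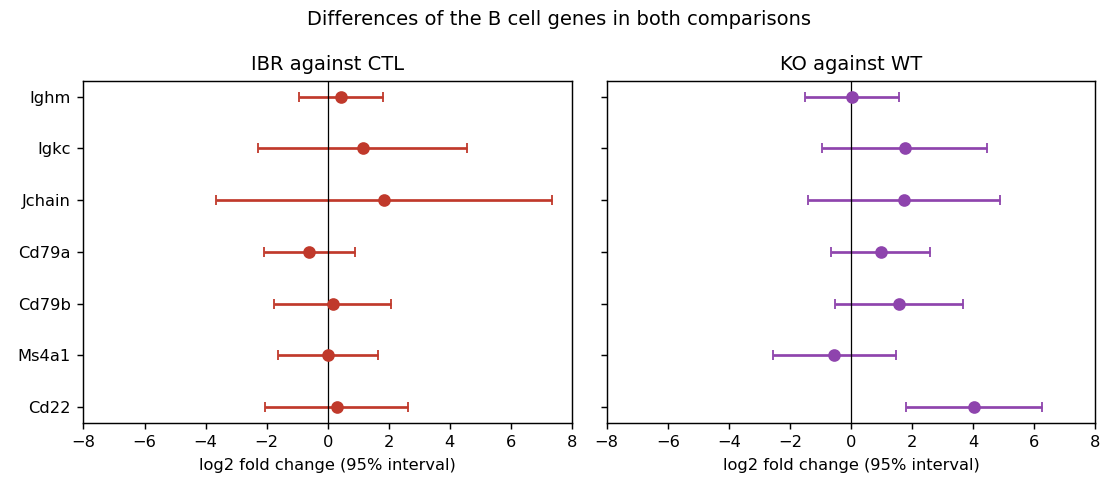
Log2 fold changes of the 7 genes in IBR against CTL (left) and KO against WT (right), as points with 95% intervals from the edgeR fit. All intervals cross 0 except that of Cd22 in KO against WT, at 4.03 with an adjusted p of 0.0629.

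The difference of both effects was tested as well, since CSK has been discussed as a target of ibrutinib. Of the 7 genes, none was called in IBR against CTL minus KO against WT, where 0.026% of all tested genes were called. Cd22 had the lowest adjusted p, with a difference of -3.74 ± 1.49 (SE) on the log2 scale (adjusted p = 0.472, edgeR), which was called without KO26 (adjusted p = 0.0478), where 9.67% of all tested genes were. For Ighm the difference was 0.40 ± 0.92, and for Jchain 0.10 ± 1.67.

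Other surface proteins of B cells were read from a list of 19 genes, of which 11 were tested. Of these, 1 was called higher in the libraries labelled KO and none lower, where 1.31% of all tested genes were called higher. All 11 log2 fold changes were above 0, with a median of 1.64, beside 0.01 over all genes tested. The called gene, Cd72, an inhibitory co-receptor of B cells that macrophages can also carry, was at 5.80 and 21.8 CPM in KO26 and KO337, against 0.544 and 0.188 CPM in WT35 and WT338. It was higher in KO by 5.16 ± 0.82 (SE) on the log2 scale, or 35.8-fold (adjusted p = 0.0282, edgeR). Without KO337 its log2 fold change was 3.89, without KO26 5.79, without WT35 6.14 and without WT338 4.63, all in edgeR. Cd72 was not called with KO and WT fitted alone (adjusted p = 0.297, edgeR), where 0% of all tested genes were. The most abundant of the list, Cd81, Cd83 and Cd24a, are expressed by many other cell types, and none of them was called.

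The genes that carry the receptor's signal were tested as a list of 20, all of them measured above the filter. None was called in IBR against CTL, where 0% of all tested genes were, and the median log2 fold change of the list was 0.20. In KO against WT 5 were called higher and none lower, where 1.31% of all tested genes were called higher and 0.898% lower. Of the 20 log2 fold changes 18 were above 0, and the median was 1.24, beside 0.01 over all genes tested. Btk, the kinase that ibrutinib blocks, was at 4.70 and 11.8 CPM in KO26 and KO337, against 2.37 and 1.44 CPM in WT35 and WT338. It was higher by 2.10 on the log2 scale, or 4.29-fold (adjusted p = 0.0466, edgeR), and by 1.26 without KO337. In the drug comparison Btk was at 1.54, 1.21 and 1.41 CPM in IBR1 to IBR3, against 1.02, 0.648 and 0.965 CPM in CTL1 to CTL3 (adjusted p = 0.824, edgeR).

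The other called signalling genes were Ptprc, the CD45 phosphatase of all white blood cells, Vav1, an exchange factor, Pik3cd, a PI3-kinase subunit, and Pik3ap1, its adaptor. They were 6.24-fold, 4.85-fold, 4.02-fold and 5.03-fold higher, with adjusted p of 0.0289, 0.0310, 0.0343 and 0.0404 in edgeR. Ptprc was at 49.0 and 121 CPM in KO26 and KO337, against 13.7 and 13.4 CPM in WT35 and WT338. Blk, a Src family kinase typical of B cells, was at 6.50 and 7.56 CPM in KO26 and KO337, against 9.98 and 3.96 CPM in WT35 and WT338. The 3 most abundant genes of the list, Syk, Fyn and Dapp1, were not called. Without KO337 the median log2 fold change was 0.52, without KO26 1.73, without WT35 1.03 and without WT338 1.63. In a fit of KO and WT alone none of these genes was called, and 0% of all tested genes were.

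**Figure D4:**
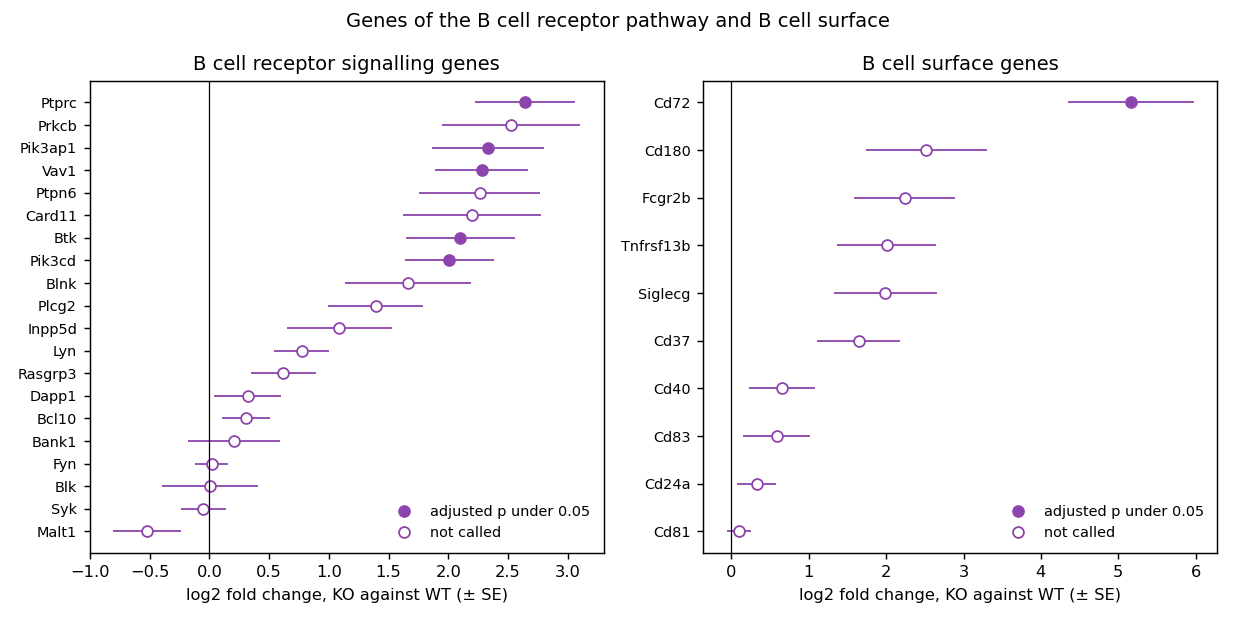
Log2 fold changes (points) with standard errors (bars) of KO against WT for the tested genes of B cell receptor signalling (left) and for tested genes of the B cell surface list (right); filled points were called at an adjusted p under 0.05. The called genes are Ptprc, Pik3ap1, Vav1, Btk and Pik3cd on the left and Cd72 on the right, all above 0.

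Among 13 transcription factors of the B lineage, 12 were tested and 2 were called higher in KO, where 1.31% of all tested genes were. The 2 were Ikzf1 and Ikzf3, which T cells use as well, at 4.28-fold (adjusted p = 0.0368, edgeR) and 5.04-fold (adjusted p = 0.0489). Without KO337 their log2 fold changes were 1.84 and 2.20, beside 2.10 and 2.33 with it. They were 2.52 and 1.94 without WT35, and 1.77 and 2.78 without WT338. Neither was called with KO and WT fitted alone (adjusted p = 0.297 for both, edgeR), where 0% of all tested genes were. With DESeq2's size factor scaling in edgeR Ikzf3 was not called (adjusted p = 0.0501), where 2.19% of all tested genes were. Pax5, the factor that defines B cell identity, stayed at or below 0.216 CPM in every library and was not tested. The most abundant, Ebf1, Tcf3 and Bcl6, were not called, and Ebf1, which B cells share with cells of connective tissue, was at 36.6 and 54.7 CPM in KO, against 27.4 and 38.3 CPM in WT.

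Of 11 plasma cell genes 10 were tested, and none was called in KO against WT by edgeR, where 2.21% of all tested genes were. The median log2 fold change was 0.16, and it was 0.57 without KO26 and -0.07 without KO337. DESeq2 called 2 of the plasma cell genes higher, where it called 12.4% of the genes it tested. Without the filter on low counts edgeR called 1, where 4.68% of all genes were called. Members of the list had different patterns. Sdc1, the plasma cell surface marker CD138, was at 12.8 and 57.0 CPM in KO26 and KO337, against 10.9 and 13.9 CPM in WT35 and WT338. Prdm1, the factor that drives plasma cell fate, was at 2.38 and 7.33 CPM in KO26 and KO337, against 0.643 and 1.26 CPM in WT35 and WT338 (adjusted p = 0.0533, edgeR). Slamf7, a receptor of plasma cells and other white blood cells, was at 3.65 and 18.1 CPM in KO26 and KO337, against 0.297 and 2.32 CPM in WT35 and WT338 (adjusted p = 0.0909, edgeR). Mzb1, a chaperone of antibody assembly, had 33 and 19 reads in KO26 and KO337, against 26 and 56 reads in WT35 and WT338. Tnfrsf17, the plasma cell survival receptor BCMA, was at or below 0.395 CPM in every library and was not tested. Txndc5, Xbp1 and Ell2 were the most abundant of the list and serve secretion or transcription in other cells too.

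Of 16 ligands and receptors of B cell survival and homing, 13 were tested. In KO 1 was called higher, where 1.31% of all tested genes were. Ccr7, which guides lymphocytes and dendritic cells to lymph nodes, was at 1.45 and 2.67 CPM in KO26 and KO337, against 0.198 and 0.251 CPM in WT35 and WT338. It was 9.04-fold higher (adjusted p = 0.0489, edgeR). With DESeq2's size factor scaling in edgeR it was not called (adjusted p = 0.0504), where 2.19% of all tested genes were. The log2 fold change of Ccr7 was 3.18, and 2.64 without KO337. Ccr7 was not called with KO and WT fitted alone (adjusted p = 0.297, edgeR), where 0% of all tested genes were. Cxcl13, the chemokine of B cell follicles, had 7.71 (KO26) and 0.543 (KO337) CPM, against 0.445 and 0.503 CPM in WT35 and WT338, so among these it was high in KO26 and not in KO337 or WT338, where the antibody sums were higher. Cxcl12, Il6 and Cxcr4, the most abundant of this list, were not called. Of the genes in these 5 lists that were tested, none was called in IBR against CTL, where 0% of all tested genes were.

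Markers of other cells also differed between the libraries labelled KO and WT, and their part in these results was not tested. The 11 macrophage genes summed to 611 and 1384 CPM in KO26 and KO337, against 419 and 523 CPM in WT35 and WT338. Of the 11, 3 were called higher, where 1.31% of all tested genes were, and 9 had log2 fold changes above 0. In 7 genes both KO libraries lay above both WT libraries and in 2 below, beside 26.3% and 26.9% of all tested genes. The 17 T and NK cell genes summed to 34.5 and 28.0 CPM in KO26 and KO337, against 8.25 and 7.73 CPM in WT35 and WT338. Of the 13 tested, 2 were called higher, where 1.31% of all tested genes were. Without KO337 the median log2 fold change was 0.79 for the macrophage genes and 2.92 for the T and NK cell genes. With KO337 these medians were 1.97 and 2.69. The log2 fold changes of the called T and NK cell genes without KO337 were 2.80 for Cd3e and 4.74 for Cd8a, beside 2.69 and 4.14 with it. No macrophage or T and NK cell gene was called with KO and WT fitted alone, where 0% of all tested genes were. The macrophage sum was 315 to 421 CPM in IBR, against 214 to 286 CPM in CTL. Of the 11 genes 0 were called, where 0% of all tested genes were, and all 11 log2 fold changes were above 0. In 6 of them all IBR libraries lay above all CTL libraries, beside 5.91% of all tested genes. Red blood cell genes summed to 1009 and 41.4 CPM in KO26 and KO337, against 182 and 77.9 CPM in WT35 and WT338. The 5 thymocyte genes summed to 0.174 and 0.317 CPM in KO26 and KO337, against 0.741 and 0.565 CPM in WT35 and WT338. Their sum was 0.367 to 0.516 CPM in IBR, against 0.664 to 0.796 CPM in CTL. Of these 5 genes Rag2 and Dntt had 0 reads in every library, and of the lymph node stroma markers Glycam1 and Madcam1 had at most 3. The 5 lymph node stroma genes in the tables summed to 22.7 and 2.85 CPM in KO26 and KO337, against 17.2 and 7.79 CPM in WT35 and WT338, and to 21.1 to 27.7 CPM in IBR, against 6.84 to 21.1 CPM in CTL. Chst4, a sulfotransferase, held most of that sum in each of the 10 libraries.

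**Figure D5:**
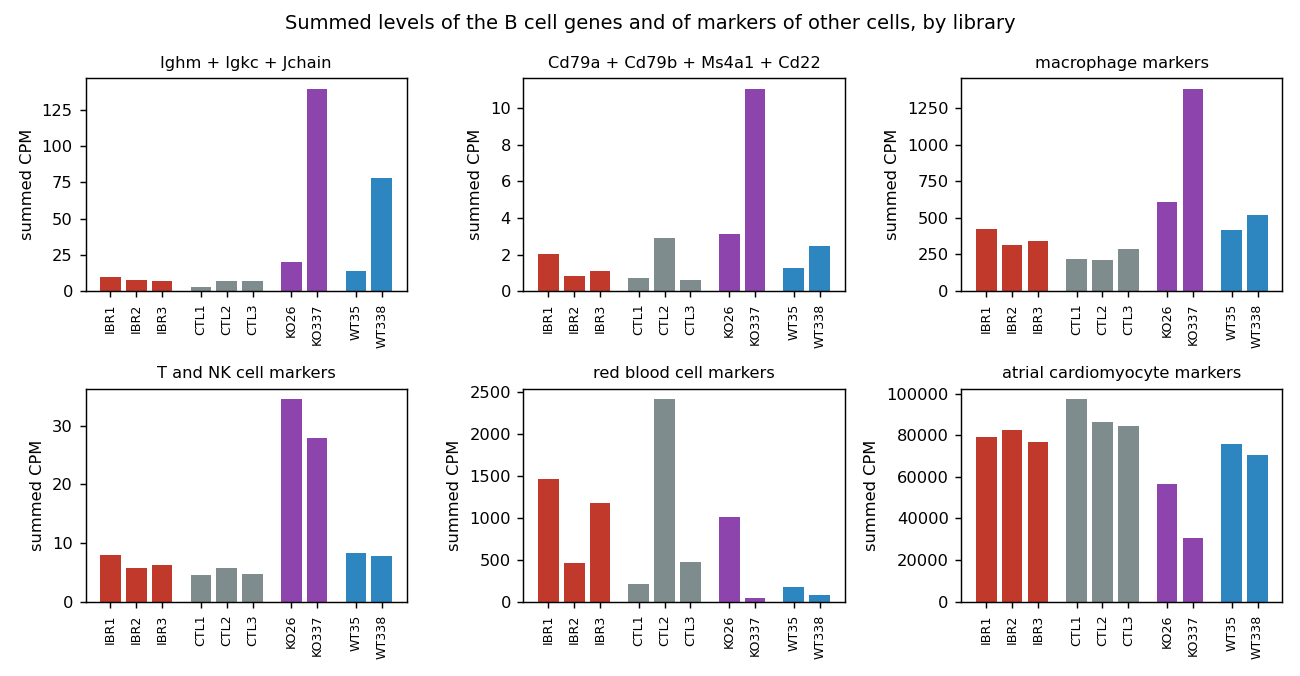
Summed TMM-scaled CPM in each library for the 3 antibody genes, the 4 surface genes and 4 marker lists, on linear axes from 0 with bars coloured by group. The antibody sum is highest in KO337 (140 CPM) and WT338 (78.2 CPM), while T and NK cell markers are high in both KO libraries (34.5 and 28.0 CPM) and low in both WT libraries (8.25 and 7.73 CPM).

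The genes whose levels followed the antibody sum most closely across the 10 libraries were Sh3pxd2b, Entpd1, Pcdhb21, Tbc1d10a and Spred3, with Pearson r of log2 CPM from 0.969 to 0.984. Sh3pxd2b, an adaptor of invasive cell protrusions, was at 32.3 and 128 CPM in KO26 and KO337, against 30.5 and 61.7 CPM in WT35 and WT338. For the sum of the surface genes they included Napsa, Cd300lf, Ccl9 and Mir142hg, with r from 0.932 to 0.961. Cd300lf, a receptor of myeloid cells, was at 1.45 and 10.5 CPM in KO26 and KO337, against 0.0989 and 1.76 CPM in WT35 and WT338. All of these correlations share the same libraries, depths and group differences, so they describe these libraries alone.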

How the data were processed

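The authors deposited raw counts of reads per gene for each of 10 libraries; STAR, HTSeq and edgeR were used with the mm9 build, per the submitters' processing notes. The kit was directional per the labels' protocols, but the counting ignored strand per the names of the deposited files, so antisense reads were not separated. Tool versions and filters are not stated there. The 5 rows of unassigned reads (reads without a feature were 13.5% to 19.9% of records) stayed out. Symbols were found for 32860 of 37583 identifiers (87.4%).

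Counts were tested with edgeR 4.0.16 in R 4.3.3: filterByExpr by group (minimum count 10, minimum total 15), TMM, and 1 quasi-likelihood fit of all libraries with 1 mean per group, leaving 6 residual degrees of freedom, with Benjamini-Hochberg adjustment over 15364 genes. DESeq2 1.42.0, other scaling, no filter, groups compared alone, a replicate block and leaving out each library were alternatives. No pair of libraries of the same group agreed within sampling noise. Exon lengths came from GENCODE vM21, and likeness used a prior count of 2.

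The members and lists were chosen with earlier results of these data known. Of each list, the called genes and the 3 most abundant are named, with all immunoglobulin genes that had a count, the variable segments with the most reads and genes most like each sum; Blk, Pax5, Sdc1, Prdm1, Slamf7, Mzb1, Tnfrsf17, Cxcl13, Rag2, Dntt, Glycam1 and Madcam1 were named beyond this rule, after their values were seen. Some genes the rule would name are not reported here.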

Additional observations from a re-analysis of the deposited data

How the results depend on the processing

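None of the 7 genes was called in IBR against CTL under any setting run, including the fit with the replicate block, in which 2 members were tested and 0 were called. Deviations from the group mean correlated at 0.016, 0.162 and 0.032 between IBR and CTL libraries of the same title number. Libraries of different numbers were not compared, so these values cannot tell whether the libraries were paired. KO and WT share no number. In KO against WT the number called was 1 (Cd22) without the filter on low counts and 1 with DESeq2, and 0 to 1 when single libraries were left out; in the difference of both effects it was also 0 to 1. Genes called in KO against WT numbered 339 in all, but 1146 without the filter, 1832 with DESeq2, 0 with the groups compared alone and 14 to 3934 without single libraries. The log2 fold change of Ms4a1 in IBR against CTL was -0.026 with DESeq2. Leaving out single libraries turned the sign of several log2 fold changes. In IBR against CTL they ran from -1.05 to 0.091 for Cd79a, -0.39 to 1.61 for Cd79b, -0.74 to 1.01 for Ms4a1 and -1.19 to 1.11 for Cd22. In KO against WT they ran from -0.87 to 1.66 for Ighm, -2.22 to 3.56 for Igkc, -3.13 to 4.22 for Jchain and -2.02 to 0.27 for Ms4a1. In the difference they ran from -1.22 to 1.33 for Ighm, -2.41 to 3.39 for Igkc, -2.39 to 4.99 for Jchain, -2.28 to 0.034 for Cd79b and -0.28 to 2.04 for Ms4a1. The cause was not tested. Leaving out a KO or WT library leaves 1 in that group, which is then assumed to vary like the other groups. Scaling by total counts kept all 70 CPM values within the spread between libraries. Depth limits Jchain and the surface genes in IBR and CTL, where 3 reads were worth 0.153 to 0.188 CPM before TMM.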
